A study of Mus musculus with 8 samples.

Results

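The B cell receptor, the membrane antibody with its signaling chains Cd79a and Cd79b, and the genes that pass on or dampen its signal were followed in RNA-seq of mouse B cells. The set holds 38 genes, chosen by name from the 55401 genes counted. By role they are 2 receptor chains, 2 coreceptors, 1 activating phosphatase, 4 Src family kinases, 2 Syk and Tec kinases, 6 adaptors, 3 lipid enzymes, 3 Vav exchange factors, 6 downstream effectors, 6 inhibitory receptors, and 3 inhibitory phosphatases or adaptors. The study compared B cells from mice whose B cells carry a knockout (KO) of Jmjd1c, a Jumonji-domain protein of the histone demethylase family, with wild-type (WT) B cells, all on the C57BL/6 strain. KO and WT germinal center B cells were sorted by FACS from the spleen. KO and WT activated B cells were enriched from the spleen with beads and stimulated in culture. Each of the 4 groups has 2 libraries. The Cre driver, the exons deleted, the stimulus, the age and sex of the mice, and whether libraries come from separate mice are stated in none of the sources used here.

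When antigen binds the receptor, Src family kinases phosphorylate the tails of Cd79a and Cd79b, Syk docks there, and Btk, the adaptor Blnk and phospholipase Plcg2 carry the signal to calcium, NF-kB and NFAT. Inhibitory receptors such as Cd22, Cd72 and Fcgr2b carry tail motifs that recruit the phosphatases Ptpn6 (SHP-1) and Inpp5d (SHIP-1), which take phosphate off these intermediates. Germinal center B cells are known for weaker signaling through this receptor than resting B cells, with high phosphatase activity and a changed use of the PI 3-kinase and Akt branch.

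Each library held from 8777425 to 11414559 gene counts. Levels are in CPM, which scales counts to library size, with TMM factors over all 8 libraries. Jmjd1c itself had 163 and 158 CPM in KO libraries and 194 and 178 CPM in WT libraries of germinal center B cells (log2 fold change -0.20, SE 0.04, adjusted p = 1.66e-05). In activated B cells it had 136 and 153 CPM in KO libraries and 274 and 283 CPM in WT libraries (log2 fold change -0.94, SE 0.06, adjusted p = 1.81e-11). It was lower in KO in both cell types, and was not at 0 in any library. B cell markers were high in every library, with sums over 7 genes between 5716 and 6970.4 CPM. The 9 germinal center markers summed to 2039 and 2045.5 CPM in KO germinal center B cells, 3615 and 3617 CPM in WT germinal center B cells, and 154 to 168 CPM in activated B cells. Mitochondrial genes took 9.20% and 9.52% of counts in KO germinal center libraries, 5.51% and 5.27% in WT ones, and 2.26% to 2.66% in activated ones. The chi-square per degree of freedom between replicates was 1.39 to 2.40, so no library was a copy of another.

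All 38 genes passed the filter on low counts. Together they took 1.68% and 1.68% of the counts on genes in KO germinal center libraries and 1.45% and 1.45% in WT ones. In activated B cells they took 1.60% and 1.60% in KO and 1.57% and 1.58% in WT. Per kilobase of exon, Cd79b was the highest member in all 4 groups. Its mean was 905 CPM per kb in KO and 847 in WT germinal center B cells, and 1225 in KO and 1178 in WT activated B cells. The next place differed. It was held by Cd22 in KO germinal center B cells, at 488 CPM per kb, and by Cd79a in the other groups, at 393 CPM per kb in WT germinal center, 397 in KO activated and 387 in WT activated B cells. Cd5 and Vav3 were the lowest members in every group, between 0.148 and 5.12 CPM per kb.

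**Figure D1:**
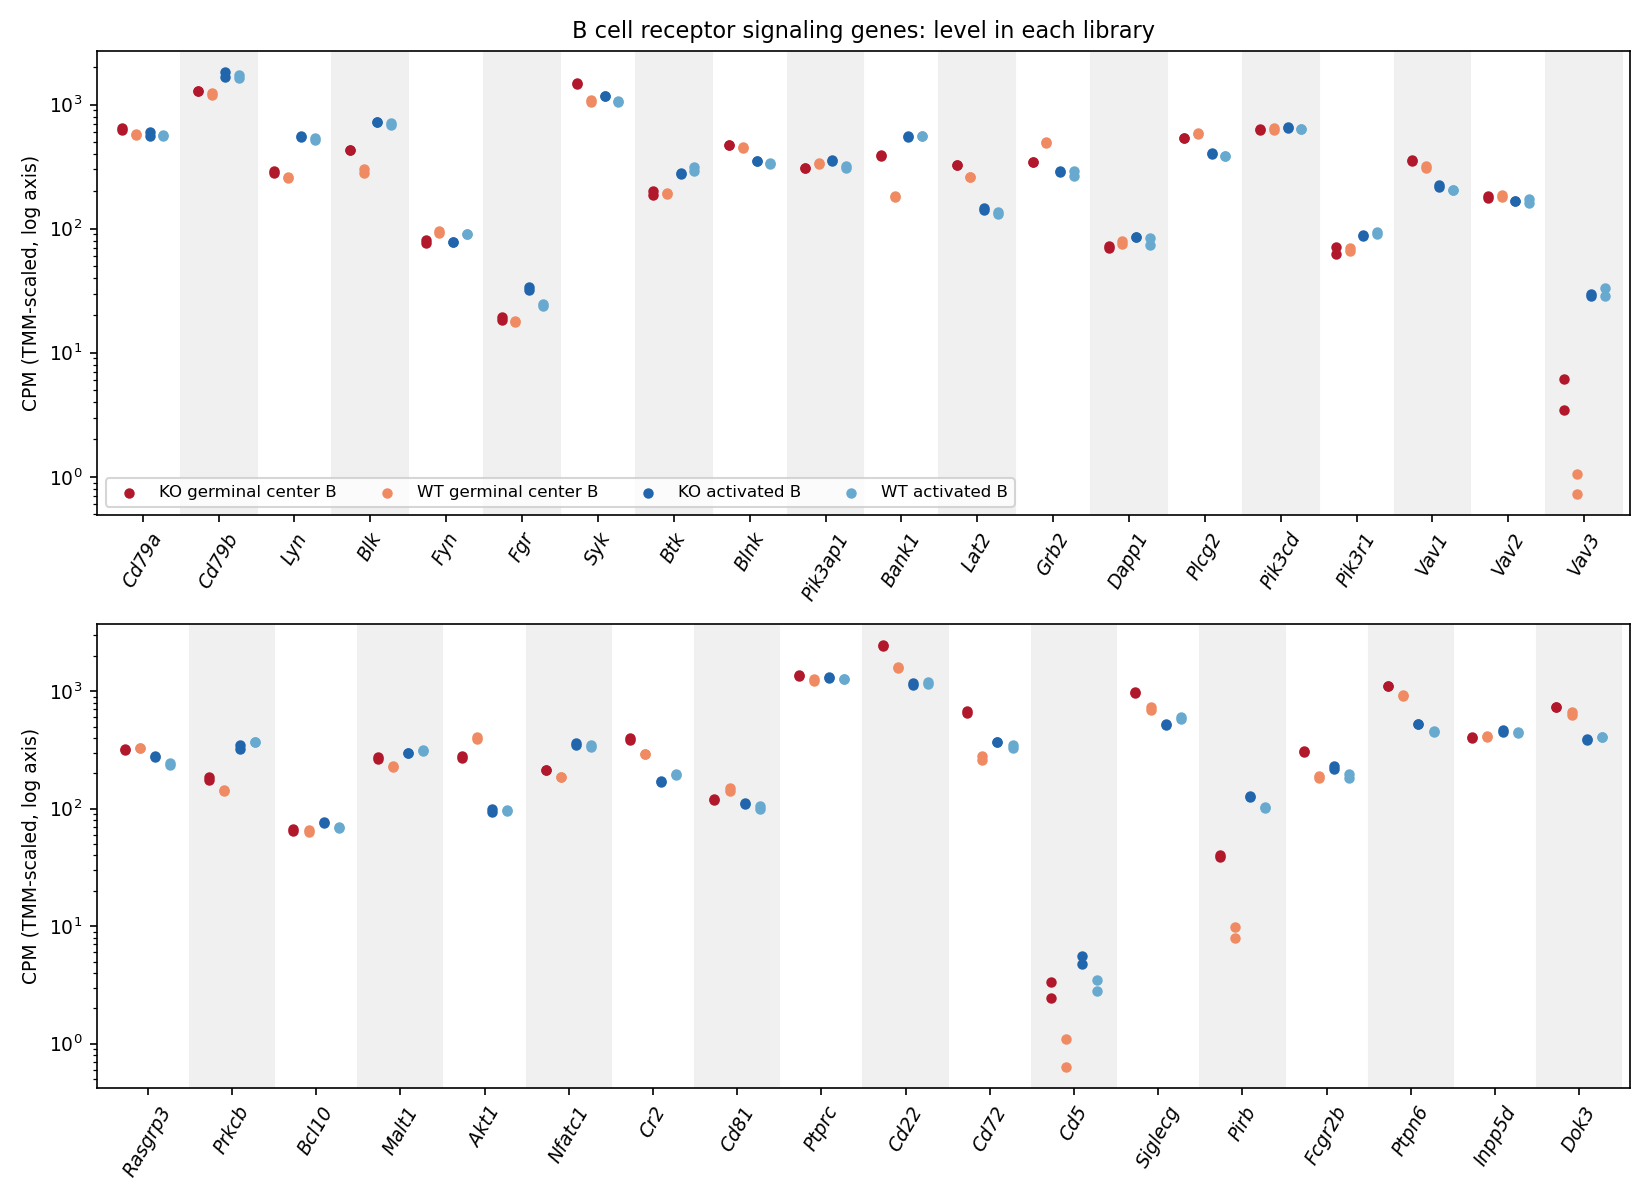
Level of each of the 38 genes in each library, in TMM-scaled CPM on a log axis, with 1 point per library, colored by cell type and genotype. Most genes lie within a narrow band across the 4 groups, while Vav3, Cd5 and Pirb spread widely, with WT germinal center libraries lowest.

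In germinal center B cells, all 6 inhibitory receptor genes were higher in KO than in WT, while the signaling genes moved in both directions. Of the 38 genes, 22 were higher in KO, 6 were lower and 10 did not pass at an adjusted p of 0.05. Across all genes tested, 50.2% passed, with 25.1% higher and 25.1% lower, so a call alone was common, while 73.7% of the members passed. The members had a median level of 324 CPM against 27.5 CPM over all genes tested, and the part of this level in the share called was not tested. Calls with a change over 1.5-fold were rarer. They numbered 7 higher and 0 lower, which is 18.4% of the members against a background of 17.0% in either direction, 11.4% higher and 5.66% lower. The 2 groups of libraries did not overlap for 33 of the 38 genes, 86.8%, against 72.8% of all genes. The 7 genes over 1.5-fold were Vav3, Pirb, Cd5, Cd72, Bank1, Fcgr2b and Cd22, of which 5 encode inhibitory receptors. The median log2 fold change was 0.15 over the members, 1.01 over the inhibitory receptors and 0.09 over the 29 signaling genes, against -0.0044 over all genes. Of the 29 signaling genes 14 were higher, 6 lower and 9 did not pass, and of the 9 inhibitory genes 8 were higher and 1 did not pass.

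**Figure D2:**
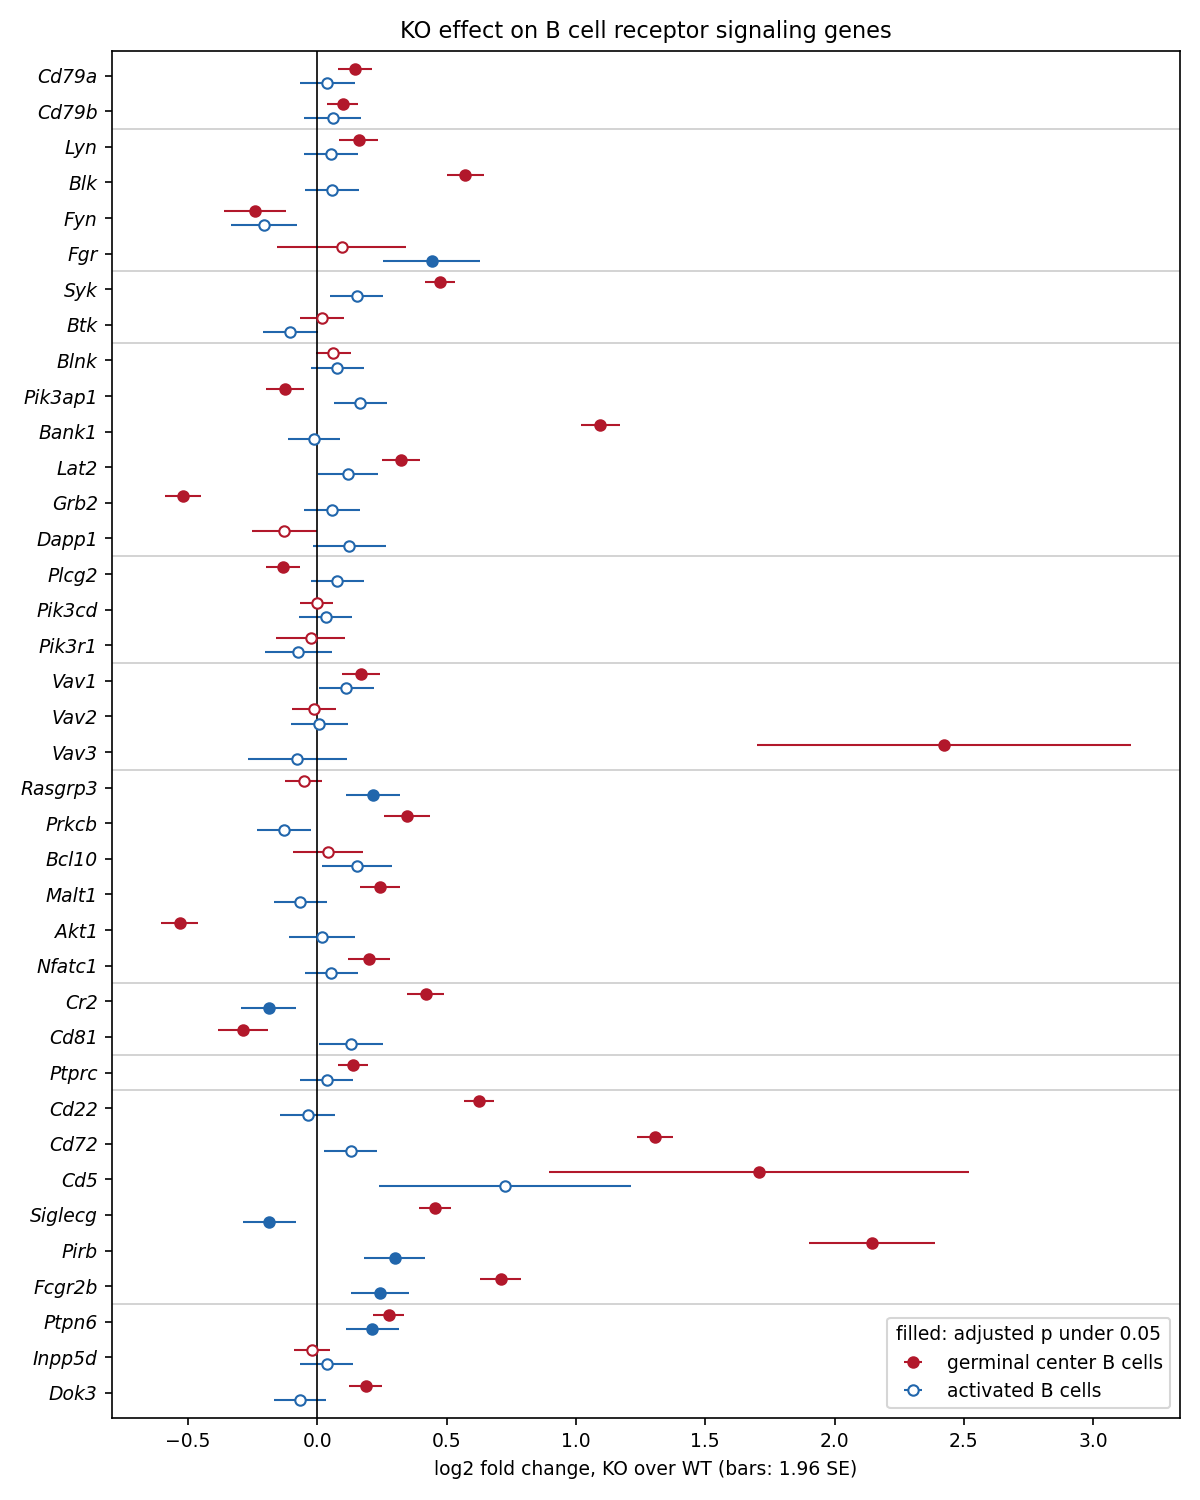
Log2 fold change, KO over WT, of each gene in germinal center and in activated B cells, with bars for an approximate 95% interval and filled points where the adjusted p was under 0.05. The inhibitory receptor genes lie to the right of 0 in germinal center B cells, from 0.46 for Siglecg to 2.14 for Pirb, and in activated B cells from -0.18 for Siglecg to 0.73 for Cd5.

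The inhibitory receptor genes are protein-coding genes on 4 chromosomes. In GENCODE M21 (GRCm38), Cd22 lies at chr7:30865402-30880342, Siglecg at chr7:43408204-43418358, Pirb at chr7:3711409-3720391, Cd72 at chr4:43446462-43454628, Fcgr2b at chr1:170958617-170976547 and Cd5 at chr19:10717116-10739002. Cd22, a sialic acid-binding lectin that recruits Ptpn6 and restrains the receptor, had 2451 and 2466 CPM in KO libraries and 1589.9 and 1606 CPM in WT libraries of germinal center B cells (log2 fold change 0.63, SE 0.03, adjusted p = 3.04e-101). Both KO libraries stood above every other library of the study. Cd72, a C-type lectin that also recruits Ptpn6, had 659.6 and 679 CPM in KO libraries and 263 and 280.0 CPM in WT libraries (log2 fold change 1.31, SE 0.04, adjusted p = 1.91e-288). The KO level was 2.47 times the WT level, and the WT libraries were the lowest of all 8. Of the exon length of Cd72, 41.6% lies on exons of the opposite-strand gene Tesk1, and the strand setting of the counting is not given, so reads on that overlap cannot be assigned to one of the pair, and the part of this in the value of Cd72 was not tested. Tesk1 had 205 and 212 CPM in KO libraries and 92.3 and 92.2 CPM in WT libraries, a like difference.

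Siglecg, a lectin relative of Cd22 that is known for restraining B-1 cells, had 971 and 987 CPM in KO libraries and 697 and 734 CPM in WT libraries of germinal center B cells (log2 fold change 0.46, SE 0.03, adjusted p = 2.12e-45). Fcgr2b, the inhibitory Fc receptor that reads immune complexes and recruits Inpp5d, had 302 and 308 CPM in KO libraries and 190.1 and 184 CPM in WT libraries (log2 fold change 0.71, SE 0.04, adjusted p = 8.96e-68). For both genes the KO libraries lay above all 6 other libraries.

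Pirb, an inhibitory receptor of B cells and myeloid cells that recruits Ptpn6, had 39.0 and 40.2 CPM in KO libraries and 7.97 and 9.85 CPM in WT libraries of germinal center B cells (log2 fold change 2.14, SE 0.12, adjusted p = 1.53e-65). WT germinal center libraries were the lowest of the study, and KO germinal center libraries still lay under all activated ones. Pirb has close relatives, the Pira genes, so its counts may be split among near-identical copies. Cd5, a scavenger-type receptor of B-1 and T cells that dampens antigen receptor signals, was near the floor, with 20 and 28 counts in KO libraries and 6 and 12 counts in WT libraries (log2 fold change 1.71, SE 0.41, adjusted p = 0.000131). The groups did not overlap, and counting error is large at this depth.

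**Figure D3:**
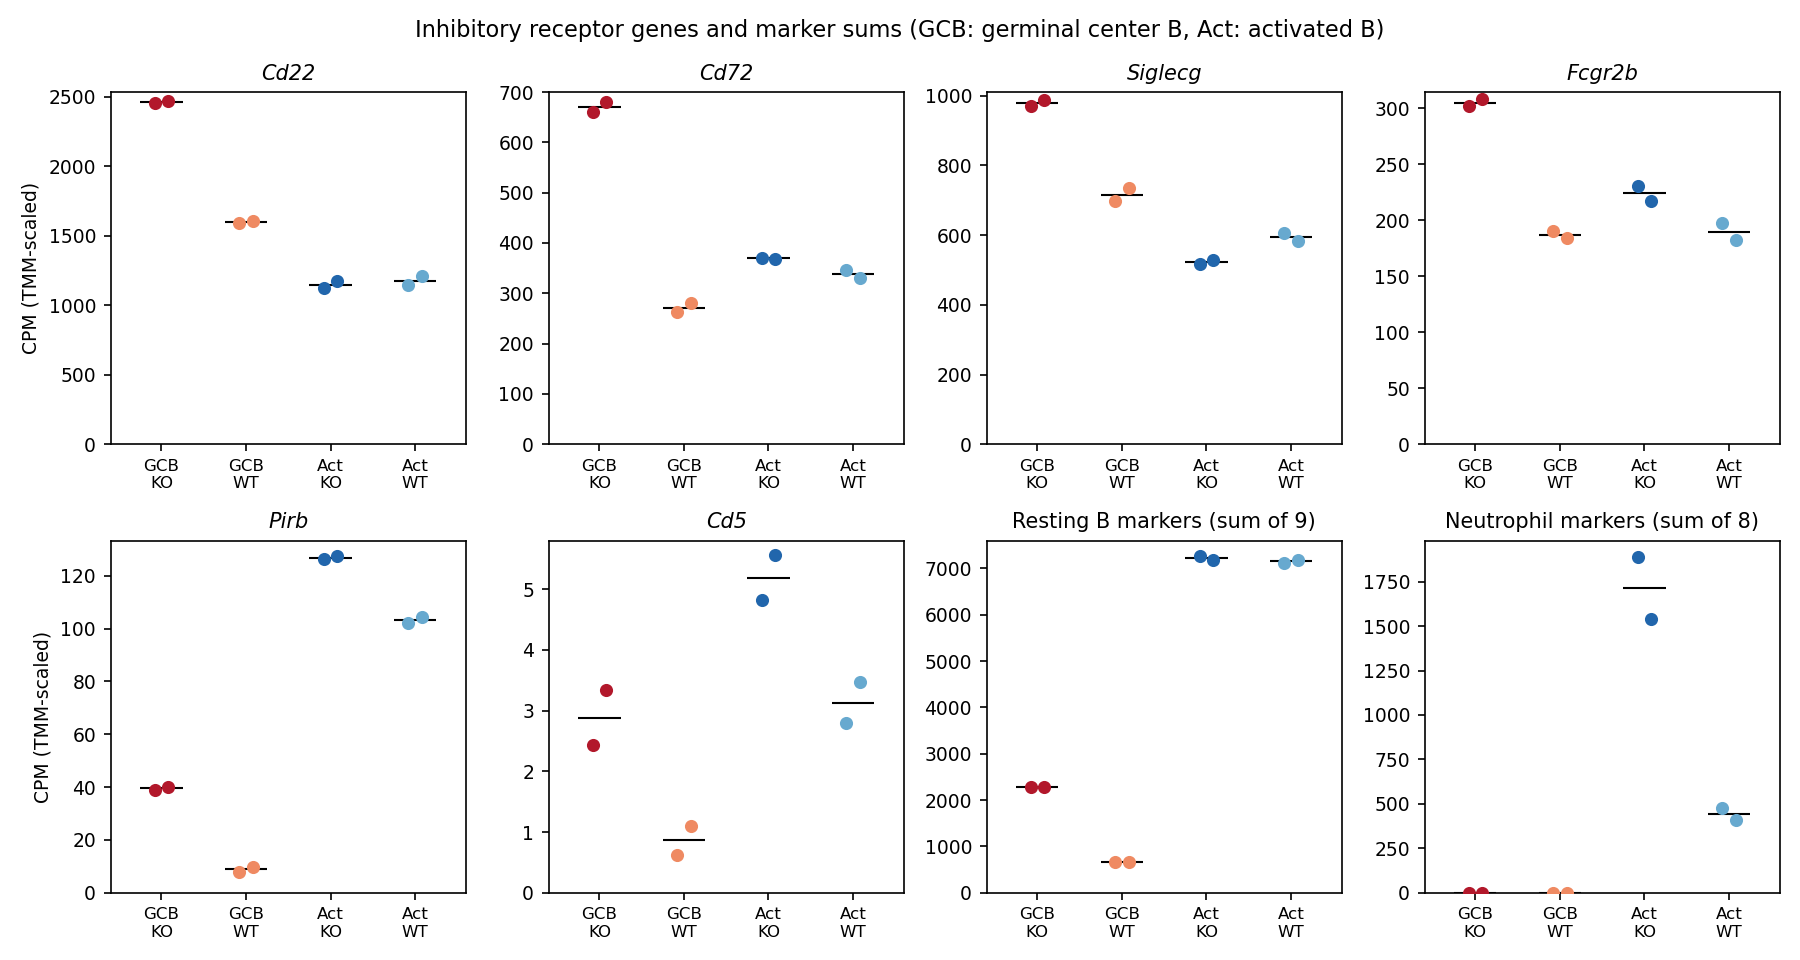
CPM of the inhibitory receptor genes and summed CPM of the resting B cell and neutrophil marker lists in the 4 groups, with 1 point per library. KO germinal center libraries lie above WT ones for all 6 receptors, and for the sum of resting B cell markers. The sum of neutrophil markers is close to the floor in germinal center libraries, and higher in KO than in WT activated libraries.

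Other markers moved with these receptors. The 9 resting B cell markers summed to 2287 and 2288 CPM in KO and 656 and 659 CPM in WT germinal center B cells, with 9 of 9 higher in KO, and 9 of 9 germinal center markers were lower. Marginal zone B cell markers summed to 504 and 506 CPM in KO and 295 and 309 CPM in WT, with 4 of 6 higher and 0 lower. Plasma cell markers summed to 842 and 847 CPM in KO and 705 and 726 CPM in WT, and of 6 tested 4 were higher and 1 lower. B-1 markers summed to 86.9 and 94.3 CPM in KO and 37.1 and 39.6 CPM in WT. Monocyte and macrophage markers summed to 128 and 147 CPM in KO and 46.1 and 46.8 CPM in WT. Of 11 tested, 9 were higher, and of the 13 listed, Lyz2 had 17 and 42 counts in KO and 4 and 2 counts in WT, while Cd14 had at most 2 counts in a library. T cell markers summed to 150 and 158 CPM in KO and 73.0 and 74.9 CPM in WT, mostly from Cd2, with Cd3e at 9 and 11 counts in KO and at 0 in WT. Dendritic cell markers summed to 75.2 and 82.1 CPM in KO and 57.7 and 62.1 CPM in WT, and of 3 tested 2 were higher and 0 lower. Neutrophil markers summed to at most 1.43 CPM in a library. In bulk RNA, a changed number of cells of a type and a changed level per cell cannot be told apart, and the part of these markers in the results was not tested.

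Upstream sequences are shown for Pirb, Cd5 and Cd72, the 3 inhibitory receptor genes with the largest log2 fold changes in germinal center B cells. Each holds the letters of a short motif, and a link between motif and change was not tested. They run 250 bases up to the RefSeq transcription start (GRCm38.p6), 5′ to 3′ on the gene's strand, which is the minus strand in each case. Capitals mark the letters GAGGAAGT, a site form of the transcription factor PU.1, or their reverse complement, which begin at -49 in Cd72, -120 in Pirb and -53 in Cd5, counted from the start site.
Cd72, chr4:43454627-43454876: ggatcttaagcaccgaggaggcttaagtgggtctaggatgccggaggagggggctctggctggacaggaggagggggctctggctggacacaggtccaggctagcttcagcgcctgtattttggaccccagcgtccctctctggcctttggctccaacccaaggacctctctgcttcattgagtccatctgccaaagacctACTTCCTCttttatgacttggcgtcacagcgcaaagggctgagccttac
Pirb, chr7:3720383-3720632: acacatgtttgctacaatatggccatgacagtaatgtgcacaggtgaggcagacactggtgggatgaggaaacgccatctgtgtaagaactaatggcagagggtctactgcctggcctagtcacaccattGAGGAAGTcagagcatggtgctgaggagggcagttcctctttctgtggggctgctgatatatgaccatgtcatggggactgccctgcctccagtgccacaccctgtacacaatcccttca
Cd5, chr19:10738975-10739224: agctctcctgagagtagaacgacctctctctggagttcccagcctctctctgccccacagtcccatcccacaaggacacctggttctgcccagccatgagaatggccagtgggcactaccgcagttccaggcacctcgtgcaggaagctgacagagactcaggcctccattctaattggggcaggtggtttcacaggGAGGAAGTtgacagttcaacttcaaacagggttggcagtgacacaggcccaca
Of the 38 genes, 32 have a RefSeq window of 250 bases before to 50 after a start. On either strand, these letters lie in windows of 7 of the 32, 21.9%, against 3.69% of 27025 genes. The other 4 genes are Grb2, Inpp5d, Rasgrp3 and Vav1. Of those 4, Vav1 was higher, Grb2 was lower, and Inpp5d and Rasgrp3 did not pass in germinal center B cells. Cd22, Siglecg and Fcgr2b, the other inhibitory receptor genes, were also higher there, and their windows hold no match to these letters. The octamer ATGCAAAT lies in windows of Blnk and Prkcb, 6.25% against 1.97% of genes. The interferon-stimulated response element and the STAT letters TTCCNGGAA lie in 0 of the 32, against 3.99% and 1.35% of genes. A match is letters in a window and says nothing of binding.

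Of the phosphatases and the adaptor that act below the inhibitory receptors, Ptpn6 had 1102 and 1113 CPM in KO libraries and 912 and 921 CPM in WT libraries of germinal center B cells (log2 fold change 0.28, SE 0.03, adjusted p = 3.39e-18). Dok3, an adaptor that brings in Inpp5d and Grb2 to limit calcium, had 731 and 732 CPM in KO libraries and 622 and 665 CPM in WT libraries (log2 fold change 0.19, SE 0.03, adjusted p = 4.11e-08). Inpp5d had 406 and 403 CPM in KO libraries and 415 and 408 CPM in WT libraries, with a log2 fold change of -0.02 (SE 0.04, adjusted p = 0.648) and an approximate 95% interval of -0.09 to 0.05. Ptpn6 and Dok3 were highest in the KO germinal center libraries of all groups, and Inpp5d was lowest there by a small margin.

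The receptor chains rose by little. Cd79a had 618 and 647 CPM in KO libraries and 567 and 579 CPM in WT libraries of germinal center B cells (log2 fold change 0.15, SE 0.03, adjusted p = 4.04e-05), and Cd79b had 1294 and 1296 CPM in KO libraries and 1194 and 1231 CPM in WT libraries (log2 fold change 0.10, SE 0.03, adjusted p = 0.00292). The groups did not overlap for either gene, but the call for Cd79b is lost when all 8 libraries are fitted together (adjusted p = 0.0886). Ptprc (CD45), the phosphatase that keeps Src family kinases active, had 1339 and 1381 CPM in KO libraries and 1261 and 1219 CPM in WT libraries (log2 fold change 0.14, SE 0.03, adjusted p = 1.87e-05).

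The 2 coreceptor genes moved apart. Cr2, which encodes the complement receptors CD21 and CD35 in mice, had 388 and 397 CPM in KO libraries and 295 and 294 CPM in WT libraries of germinal center B cells (log2 fold change 0.42, SE 0.04, adjusted p = 3.66e-29). Cd81, a tetraspanin of the coreceptor complex, had 119 and 120.1 CPM in KO libraries and 150.2 and 143 CPM in WT libraries (log2 fold change -0.29, SE 0.05, adjusted p = 5.24e-08). Cr2 was highest in the KO germinal center libraries of all 8, and Cd81 was highest in the WT ones. The sum of marginal zone markers given above was also higher in both KO libraries than in both WT libraries, and its part in the value of Cr2 was not tested.

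Among the Src family kinases, Blk, a kinase largely restricted to the B lineage, had 433 and 429 CPM in KO libraries and 282 and 299.7 CPM in WT libraries of germinal center B cells (log2 fold change 0.57, SE 0.04, adjusted p = 4.69e-54). Lyn, which starts both activating and inhibitory phosphorylation, had 291 and 283 CPM in KO libraries and 261 and 254 CPM in WT libraries (log2 fold change 0.16, SE 0.04, adjusted p = 0.000116). Fyn had 76.6 and 81.7 CPM in KO libraries and 95.1 and 92.6 CPM in WT libraries (log2 fold change -0.24, SE 0.06, adjusted p = 0.000226), and Fgr, a kinase best known from myeloid cells, had 18.5 and 19.4 CPM in KO libraries and 17.7 and 17.9 CPM in WT libraries (log2 fold change 0.09, SE 0.13, adjusted p = 0.567). Blk and Lyn were thus higher in KO, Fyn was lower and Fgr did not pass. As a share of the summed level of these 4 genes per kb, Blk made up 63.1% in both KO libraries and 53.6% to 55.8% in WT libraries, Fyn 6.90% to 7.42% in KO and 10.7% to 11.2% in WT, and Lyn 27.5% to 28.1% in KO and 31.3% to 32.9% in WT. In activated B cells Blk made up 62.1% to 62.4% in KO and 61.1% to 62.9% in WT.

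**Figure D4:**
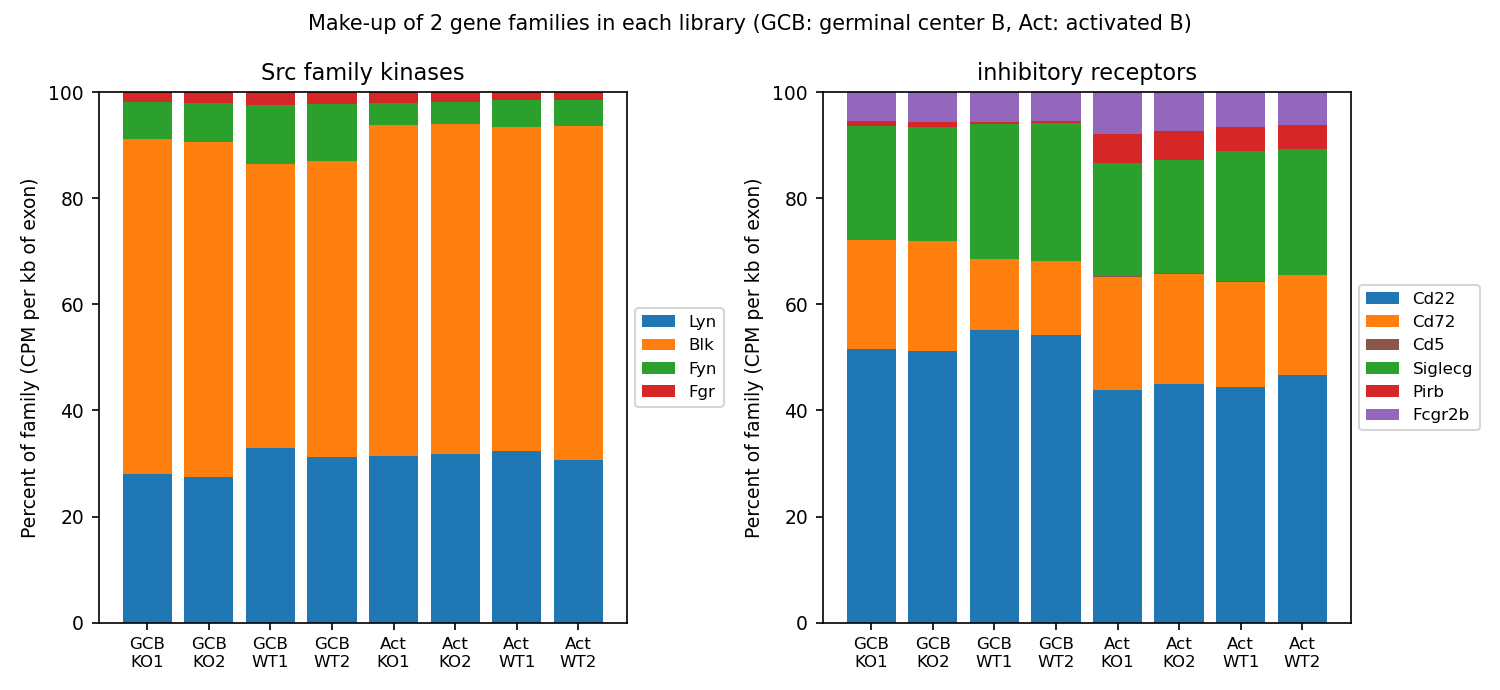
Share of each gene in the summed level per kb of the 4 Src family kinases and of the 6 inhibitory receptors, in percent, with 1 stacked bar per library. Blk takes a larger share of the kinases and Cd72 a larger share of the receptors in KO than in WT germinal center libraries. The part of the overlap with Tesk1 in the share of Cd72 was not tested.

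Within the inhibitory receptors, Cd22 made up 51.2% to 51.6% of the summed level per kb in KO and 54.2% to 55.1% in WT germinal center libraries. Cd72 made up 20.5% to 20.8% in KO and 13.4% to 13.9% in WT. The overlap of Cd72 with Tesk1, given above, applies to these shares as well, and its part in them was not tested. Cd22 was the most abundant of the 6 in all 4 groups.

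Syk, the kinase that docks on the phosphorylated chains, had 1465 and 1495 CPM in KO libraries and 1084 and 1051 CPM in WT libraries of germinal center B cells (log2 fold change 0.48, SE 0.03, adjusted p = 2.78e-54), and the KO libraries were the highest of all 8. Btk, the Tec kinase that activates Plcg2, had 201 and 187 CPM in KO libraries and 193 and 191 CPM in WT libraries, with a log2 fold change of 0.02 (SE 0.04, adjusted p = 0.747) and an approximate 95% interval of -0.06 to 0.10. Its groups overlapped.

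Adaptors moved in both directions. Bank1, a scaffold that ties Lyn to the calcium channel of internal stores, had 385 and 389 CPM in KO libraries and 179.5 and 184 CPM in WT libraries of germinal center B cells (log2 fold change 1.09, SE 0.04, adjusted p = 9.02e-168), 2.14 times the WT level. Grb2, which links receptors to Ras and restrains calcium in B cells, had 344 and 344 CPM in KO libraries and 491 and 496 CPM in WT libraries (log2 fold change -0.52, SE 0.04, adjusted p = 1.94e-46). WT germinal center libraries were the lowest of all 8 for Bank1 and the highest for Grb2. Lat2 had 327 and 328 CPM in KO libraries and 261 and 263 CPM in WT libraries (log2 fold change 0.32, SE 0.04, adjusted p = 1.73e-16), with 36.3% of its exon length on opposite-strand exons of Rfc2, which had 494 and 484 CPM in KO libraries and 439 and 469.7 CPM in WT libraries. Pik3ap1 (BCAP), which brings PI 3-kinase to the membrane, was lower at -0.12 (adjusted p = 0.00239), a call lost without the first KO library (adjusted p = 0.0593). Blnk, the scaffold for Btk and Plcg2, and Dapp1, a lipid-binding adaptor, did not pass, with log2 fold changes of 0.06 and -0.13.

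Of the lipid enzymes, Plcg2 had 535 and 537 CPM in KO libraries and 595 and 583 CPM in WT libraries of germinal center B cells (log2 fold change -0.13, SE 0.03, adjusted p = 0.000286). Pik3cd and Pik3r1, the catalytic and regulatory chains of PI 3-kinase, did not pass, with approximate 95% intervals of -0.07 to 0.06 and -0.16 to 0.11 on the log2 scale. Among the Vav exchange factors, which switch on Rac GTPases, Vav1 had 358 and 348 CPM in KO libraries and 309.6 and 319.7 CPM in WT libraries (log2 fold change 0.17, SE 0.04, adjusted p = 1.71e-05) and Vav2 did not pass, with an interval of -0.10 to 0.07. Vav3 rested on few reads, with 50 and 29 counts in KO libraries and 10 and 8 counts in WT libraries (log2 fold change 2.42, SE 0.37, adjusted p = 3.59e-10). Vav3 made up 0.476% to 0.813% of the summed Vav level per kb in KO and 0.107% to 0.159% in WT.

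Among downstream effectors, Akt1, the kinase fed by PI 3-kinase, had 280.0 and 272 CPM in KO libraries and 396 and 404 CPM in WT libraries of germinal center B cells (log2 fold change -0.53, SE 0.04, adjusted p = 3.81e-45). Prkcb, the kinase C isoform that feeds NF-kB in B cells, had 174 and 188 CPM in KO libraries and 145 and 141 CPM in WT libraries (log2 fold change 0.35, SE 0.05, adjusted p = 2.32e-13), and Malt1, its partner protease, had 276 and 264 CPM in KO libraries and 233 and 225 CPM in WT libraries (log2 fold change 0.24, SE 0.04, adjusted p = 4.86e-09). Akt1 was lower in KO, and Prkcb and Malt1 were higher, without overlap. Nfatc1, the calcium-driven transcription factor, was higher at 0.20 (adjusted p = 8.18e-06). Bcl10, which joins Malt1 in the NF-kB complex, and Rasgrp3, which loads Ras, did not pass, with intervals of -0.09 to 0.18 and -0.13 to 0.02.

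Other genes of the pathway were counted from 2 lists. Of 50 tested signaling genes, 16 were higher and 12 lower in KO germinal center B cells. Of 24 tested inhibitors, 12 were higher and 5 lower, with a median log2 fold change of 0.21. Among all genes tested in this comparison, 25.1% were higher and 25.1% lower, so calls in both directions were common outside these lists too. The inhibitory receptor Fcrl5 had 45.9 and 43.8 CPM in KO libraries and 4.20 and 3.56 CPM in WT libraries, a log2 fold change of 3.54 (SE 0.14, adjusted p = 1.46e-129). Ptpn22, a phosphatase that acts on Src and Syk family kinases, had 61.0 and 65.7 CPM in KO libraries and 5.25 and 6.29 CPM in WT libraries, a change of 3.45 (SE 0.12, adjusted p = 2.09e-177). Pik3r5 changed by 2.13 (SE 0.17, adjusted p = 4.31e-35). On the other side, Pik3cb changed by -0.89 (SE 0.23, adjusted p = 0.000276), Hras by -0.51 (SE 0.09, adjusted p = 2.69e-08), Pdpk1 by -0.45 (SE 0.06, adjusted p = 9.45e-13) and Ppp3r1 by -0.34 (SE 0.06, adjusted p = 1.95e-07).

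In activated B cells 7 of the 38 genes differed between KO and WT, each by under 1.5-fold. Of the 38, 5 were higher, 2 were lower and 31 did not pass. The share called was 18.4% of the members, against 6.27% called among all genes tested, 4.85% higher and 1.42% lower. The share called with a change over 1.5-fold was 0 of the members, against 3.12% of all genes, 2.74% higher and 0.383% lower. Libraries of KO and WT did not overlap for 29 of the 38, 76.3%, against 47.8% of all genes. The members had a median level of 320 CPM against 22.2 CPM over all genes tested. The part of this level in these shares was not tested. The median log2 fold change was 0.06 over the members and 0.0006 over all genes.

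Pirb had 126 and 127 CPM in KO libraries and 102 and 104 CPM in WT libraries of activated B cells (log2 fold change 0.30, SE 0.06, adjusted p = 0.00201). Fcgr2b had 231 and 217 CPM in KO libraries and 197 and 182 CPM in WT libraries (log2 fold change 0.24, SE 0.06, adjusted p = 0.00828), and Ptpn6 had 530.4 and 527 CPM in KO libraries and 454 and 459 CPM in WT libraries (log2 fold change 0.21, SE 0.05, adjusted p = 0.0106). For each of these inhibitory genes both KO libraries lay above both WT libraries. Fgr had 33.6 and 32.0 CPM in KO libraries and 24.6 and 23.8 CPM in WT libraries (log2 fold change 0.44, SE 0.10, adjusted p = 0.00373), and Rasgrp3 had 277 and 279.6 CPM in KO libraries and 246 and 234 CPM in WT libraries (log2 fold change 0.22, SE 0.05, adjusted p = 0.0114). On the lower side, Siglecg had 517 and 527 CPM in KO libraries and 605 and 584 CPM in WT libraries (log2 fold change -0.18, SE 0.05, adjusted p = 0.0327) and Cr2 had 169.8 and 171 CPM in KO libraries and 197 and 192 CPM in WT libraries (log2 fold change -0.19, SE 0.05, adjusted p = 0.0371), with KO activated libraries the lowest of all 8 for both genes.

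The other inhibitory receptors did not pass in activated B cells. Cd22 had 1121 and 1171 CPM in KO libraries and 1148 and 1207 CPM in WT libraries, with an approximate 95% interval of -0.14 to 0.07 on the log2 scale, and Cd72 had 371 and 368 CPM in KO libraries and 347 and 329.8 CPM in WT libraries, with an interval of 0.03 to 0.23 and an adjusted p of 0.174. The intervals are not adjusted for the number of genes. Cd5 had 47 and 55 counts in KO libraries and 27 and 35 counts in WT libraries, with a wide interval of 0.24 to 1.21 and an adjusted p of 0.0884. With DESeq2 in place of edgeR, 1 gene was higher (Ptpn6) and 0 were lower, with 7 and 4 at an unadjusted p under 0.05, against 12 and 4 with edgeR. Leaving out 1 library gave 2 to 5 higher and 0 to 1 lower. Cr2 lost its call without any 1 of the 4 libraries (adjusted p = 0.0797 to 0.171), and Siglecg without the first KO (0.133), the first WT (0.183) or the second WT library (0.0650). Fcgr2b lost it without the first KO (0.0979) or the second WT library (0.138), Rasgrp3 without the second WT library (0.146), and Ptpn6 without the first (0.0650) or the second WT library (just over 0.05).

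Myeloid markers moved with the KO in activated B cells. Neutrophil markers summed to 1541 and 1887 CPM in KO and 408 and 475 CPM in WT, with 8 of 8 higher. Monocyte and macrophage markers summed to 1377 and 1500.3 CPM in KO and 868 and 918 CPM in WT, with 6 of 10 tested higher, and Lyz2 had 868 and 785 CPM in KO and 457 and 414 CPM in WT. Pirb, Fcgr2b, Fgr and Ptpn6 are also expressed in myeloid cells, and the part of such cells in these values was not tested. The sum of resting B cell markers was 7177 to 7274 CPM in KO and 7120.2 to 7182 CPM in WT.

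Of the other pathway genes in activated B cells, 4 of 52 signaling genes were higher and 1 lower, 7.69% and 1.92%. Of 27 inhibitors, 7 were higher, 25.9%, and 0 lower (8 and 1 at an unadjusted p under 0.05, edgeR). Over all genes tested, 4.85% were higher and 1.42% lower. Fcrl5 had 33.3 and 29.3 CPM in KO libraries and 19.4 and 17.2 CPM in WT libraries, a log2 fold change of 0.77 (SE 0.11, adjusted p = 2.04e-05), and Ptpn22 had 164 and 168 CPM in KO libraries and 102 and 101 CPM in WT libraries, a change of 0.71 (SE 0.06, adjusted p = 3.07e-09). Pik3cb changed by 0.87 (SE 0.19, adjusted p = 0.00396).

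The KO effects in the 2 cell types were then set against each other by a test of the difference, germinal center minus activated, in a fit of all 8 libraries. The effect was larger or more positive in germinal center B cells for 14 genes, more negative for 7 and not separable for 17, against 31.2% called among all genes tested, 17.5% more positive and 13.8% more negative. Differences over 1.5-fold with a call were seen for 7 genes more positive and 0 more negative, against 9.9% and 4.65% of all genes, 14.5% in all. The part of the members' higher level, given above, in these shares was not tested. Of the 6 inhibitory receptors, 5 were among the 14. The differences were 1.84 (SE 0.13, adjusted p = 4.12e-23) for Pirb, 1.18 (SE 0.07, adjusted p = 1.12e-28) for Cd72, 0.66 (SE 0.06, adjusted p = 1.59e-15) for Cd22, 0.64 (SE 0.07, adjusted p = 2.39e-14) for Siglecg and 0.47 (SE 0.07, adjusted p = 2.89e-08) for Fcgr2b. Cd5 had a difference of 0.98 (SE 0.50, adjusted p = 0.132), which did not pass. For Cr2 and Siglecg the effects had opposite signs, with Cr2 at 0.42 in germinal center and -0.19 in activated B cells.

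Among signaling genes, Vav3 (2.50), Bank1 (1.11), Blk (0.52), Prkcb (0.47), Syk (0.32) and Malt1 (0.31) had more positive KO effects in germinal center B cells. Grb2 (-0.57), Akt1 (-0.55), Cd81 (-0.42), Pik3ap1 (-0.29), Rasgrp3 (-0.27), Dapp1 (-0.25) and Plcg2 (-0.21) had more negative ones, all on the log2 scale. Lat2 (0.20), Dok3 (0.25) and Cr2 (0.61) made up the rest of the more positive ones. The call on Dapp1 was lost without any of 5 libraries, with an adjusted p up to 0.394 without the second WT activated library, that on Lat2 without any of 4, up to 0.0935 without the second KO activated library, and that on Plcg2 without the first WT germinal center library (0.0835). Ptpn6, higher in KO in both cell types, had a difference of 0.06 (SE 0.06, adjusted p = 0.515). The receptor chains did not pass either, at 0.11 for Cd79a and 0.04 for Cd79b. In the other pathway lists, 15 of 52 signaling genes were more positive and 9 more negative, and 8 of 27 inhibitors were more positive and 2 more negative. Over all genes tested, 17.5% were more positive and 13.8% more negative. The inhibitors Lilrb4a, Fcrl5 and Ptpn22 had differences of 3.48 (SE 0.42, adjusted p = 1.66e-11), 2.76 (SE 0.19, adjusted p = 1.97e-23) and 2.74 (SE 0.13, adjusted p = 2.8e-34). Lilrb4a was near the floor in WT germinal center libraries, at 0.210 and 0.547 CPM, against 5.11 and 4.88 CPM in KO ones. Pik3cb, with opposite signs in the 2 cell types, had a difference of -1.76 (SE 0.30, adjusted p = 9.66e-07).

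The WT libraries show how these genes stand in the 2 B cell states without the knockout. In WT germinal center against WT activated B cells, 14 genes were higher, 15 were lower and 9 did not pass, against 82.2% called among all genes tested, 40.3% higher and 41.8% lower. Changes over 1.5-fold with a call were seen for 8 genes higher and 9 lower, 44.7% of the members against 61.5% of all genes, 29.4% higher and 32.1% lower. The groups did not overlap for 33 of the 38, 86.8%, against 90.3% of all genes. Cell state, culture and method of isolation cannot be told apart here. Resting B cell markers summed to 656 and 659 CPM in WT germinal center and 7120 and 7182 CPM in WT activated libraries. Neutrophil markers summed to at most 0.36 CPM in WT germinal center and 408 and 475 CPM in WT activated libraries. The part of these markers in the comparison was not tested.

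Akt1 had 396 and 404 CPM in germinal center libraries and 97.1 and 94.9 CPM in activated libraries (log2 fold change 2.05, SE 0.05, adjusted p = 1.34e-91), 4.14 times the activated level. Ptpn6 had 912 and 921 CPM in germinal center libraries and 454 and 459 CPM in activated libraries (log2 fold change 0.99, SE 0.05, adjusted p = 2.16e-50), Grb2 had 491 and 496 CPM in germinal center libraries and 267 and 290.0 CPM in activated libraries (log2 fold change 0.81, SE 0.05, adjusted p = 8e-39) and Dok3 had 622 and 665 CPM in germinal center libraries and 405 and 406 CPM in activated libraries (log2 fold change 0.66, SE 0.05, adjusted p = 7.9e-30). In each case both germinal center libraries lay above both activated ones. Lat2 was also higher at 0.97, with its overlapping partner Rfc2 at 1.71, so its value is uncertain. Vav1, Plcg2, Cr2, Cd81, Rasgrp3, Cd22, Blnk, Siglecg and Vav2 completed the higher genes, from 0.61 for Vav1 to 0.13 for Vav2.

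On the lower side, Vav3 had 10 and 8 counts in germinal center libraries and 275 and 334 counts in activated libraries (log2 fold change -5.12, SE 0.21, adjusted p = 4.77e-58). Pirb had 7.97 and 9.85 CPM in germinal center libraries and 102 and 104 CPM in activated libraries (log2 fold change -3.53, SE 0.10, adjusted p = 1.12e-87). Bank1 had 179.5 and 184 CPM in germinal center libraries and 554 and 554 CPM in activated libraries (log2 fold change -1.62, SE 0.05, adjusted p = 7.85e-79), Prkcb had 145 and 141 CPM in germinal center libraries and 371 and 369 CPM in activated libraries (log2 fold change -1.38, SE 0.05, adjusted p = 1.47e-67) and Blk had 282 and 299.7 CPM in germinal center libraries and 678 and 709 CPM in activated libraries (log2 fold change -1.27, SE 0.05, adjusted p = 8.76e-64). Lyn (-1.06), Nfatc1 (-0.88), Btk (-0.66), Cd79b (-0.49), Pik3r1 (-0.46), Malt1 (-0.46), Fgr (-0.45), Cd72 (-0.33), Inpp5d (-0.13) and Cd5 (-1.83) were lower too, on the log2 scale. Cd79a, Syk, Fyn, Pik3ap1, Pik3cd, Dapp1, Bcl10, Ptprc and Fcgr2b did not pass. The call on Vav2 was lost without the second germinal center (adjusted p = 0.0974) or the first activated library (0.265), and that on Inpp5d without the first (0.0860) or second germinal center library (0.218). Pirb is also a myeloid gene, and monocyte and macrophage markers summed to 46.1 and 46.8 CPM in WT germinal center and 868 and 918 CPM in WT activated B cells; their part was not tested.

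**Figure D5:**
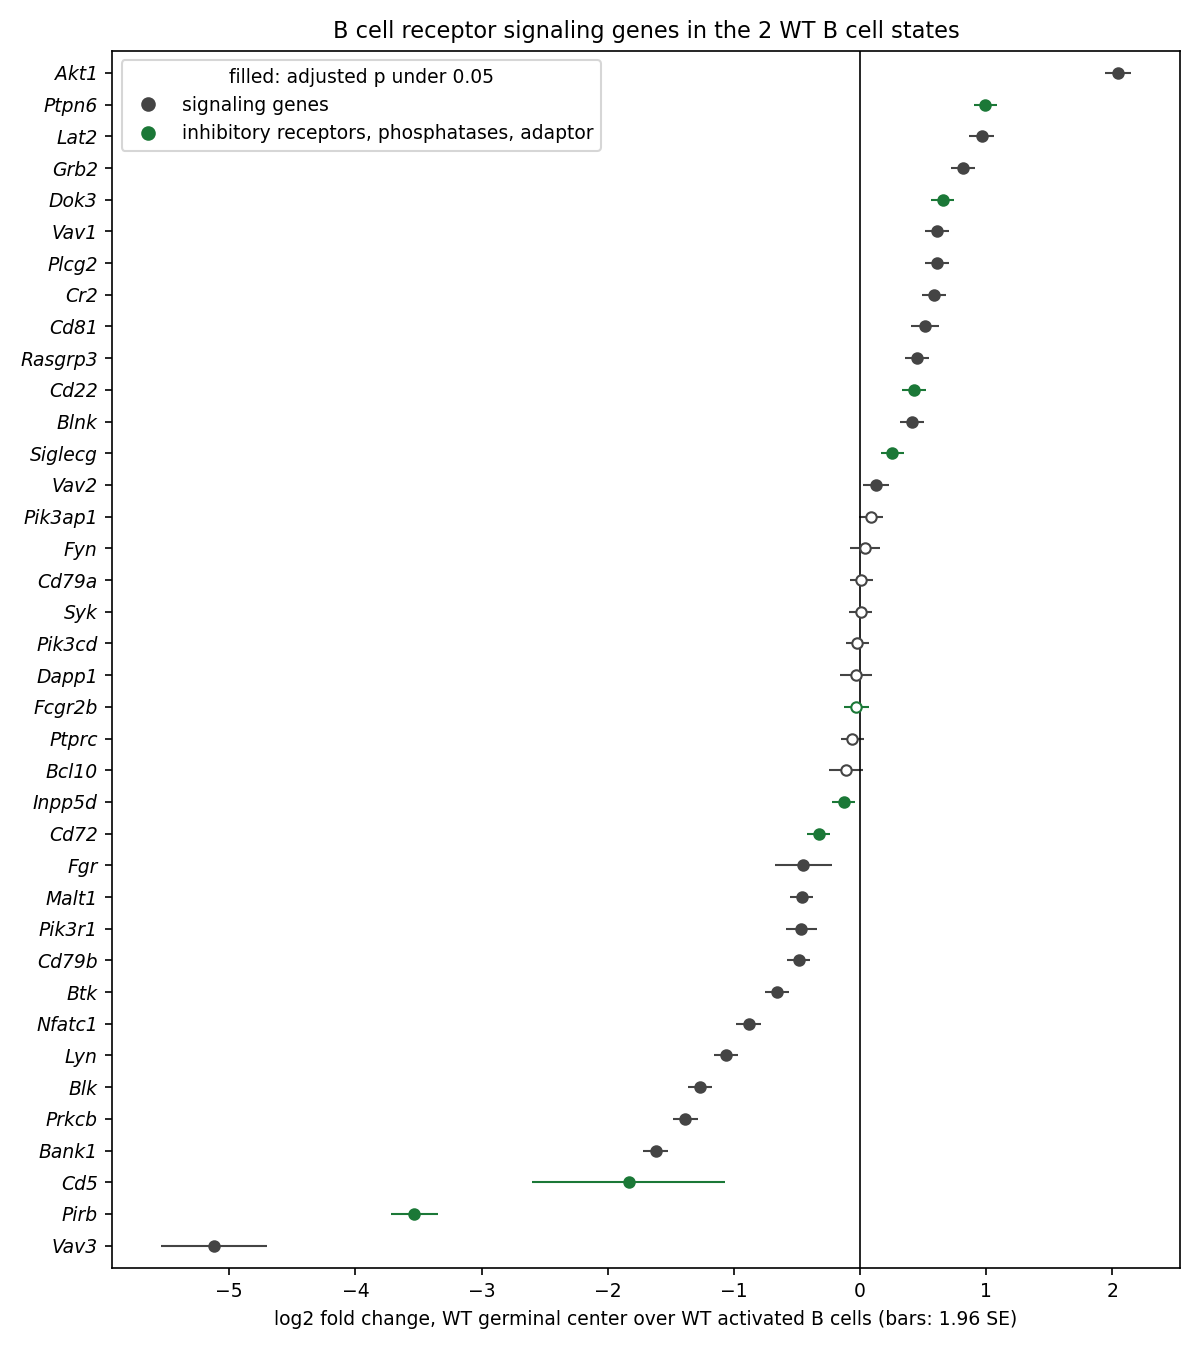
Log2 fold change, WT germinal center over WT activated B cells, of each of the 38 genes, ordered by size, with bars for an approximate 95% interval. Akt1 is the highest at 2.05 and Vav3 the lowest at -5.12, and the inhibitory genes run from -3.53 for Pirb to 0.99 for Ptpn6.

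Of the other pathway genes in the WT comparison, 19 of 52 signaling genes were higher and 30 lower, and 6 of 25 inhibitors were higher and 17 lower. Over all genes tested, 40.3% were higher and 41.8% lower. Hras (1.99 (SE 0.11, adjusted p = 2.75e-43)), Itpr3 (1.27 (SE 0.05, adjusted p = 6.54e-64)), Lck (0.97 (SE 0.07, adjusted p = 1.06e-30)) and Ms4a1 (0.94 (SE 0.05, adjusted p = 1.72e-46)) were higher. Lilrb4a (-6.07 (SE 0.26, adjusted p = 1.86e-56)), Ptpn22 (-4.13 (SE 0.10, adjusted p = 2.35e-92)) and Sla (-2.88 (SE 0.07, adjusted p = 1.04e-98)) were lower. For Lilrb4a the WT germinal center libraries were near the floor, at 0.210 and 0.547 CPM, so the size of its change is uncertain.

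The KO and the WT comparison share the WT germinal center libraries, so values for the same gene are given only side by side. Akt1 was -0.53 for KO over WT in germinal center B cells and 2.05 for WT germinal center over WT activated B cells. Bank1 was 1.09 in the first comparison and -1.62 in the second, Grb2 -0.52 and 0.81, and Pirb 2.14 and -3.53. Ptpn6, at 0.28 and 0.99, and Cd22, at 0.63 and 0.43, were higher in both comparisons.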

How the data were processed

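RNA was sequenced from 8 mouse libraries in 4 groups of 2, grouped by their titles. The titles read GCB for germinal center B cells and PanB for the libraries called activated B cells here. The files hold whole-number counts of reads per gene as the authors deposited them. The submitters' processing notes name the build mm10, Trimmomatic and DESeq2. No source used here gives their versions, the aligner, the counting program or its strand setting. Gene symbols are those the authors gave beside the counts. Of 55401 gene identifiers, 55141 are in GENCODE M21 (GRCm38), from which coordinates and exon lengths were taken, and all 38 members matched. The 5 summary entries per file stayed out of library sizes and tests, among them reads on no feature, 47.2% to 53.9% of all entries, and ambiguous reads, 1.12% to 1.26%. In a library, 1 CPM stands for 8.78 to 11.4 counts.

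Counts were tested with edgeR 4.0.16 in R 4.3.3 (TMM scaling, filterByExpr, quasi-likelihood F test, Benjamini-Hochberg adjustment over all genes tested, two-sided), with 0.05 as the limit of the adjusted p for a call. The KO effect was fitted in germinal center and in activated B cells, and WT germinal center was set against WT activated B cells, each from its own 4 libraries, while the difference of the KO effects came from 1 fit of all 8. The SE is the log2 fold change divided by the root of F. CPM levels use 1 scaling over all 8 libraries, so ratios of printed levels can differ slightly from the fitted changes. Nothing in the labels says that replicates came from separate mice, so p-values measure the spread between these libraries, which may be technical. The procedure was tested on simulated counts. Alternatives were RLE scaling, DESeq2 1.42.0, no filter, each library left out, a replicate block, and all 8 libraries in 1 fit.

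The 38 members, the 2 lists of other pathway genes and the marker lists were chosen with earlier results of these data known, so no list is independent evidence of its direction. Other pathway genes are named where they were called, averaged 50 or more counts, did not overlap between groups and were among the 4 largest changes per direction, and Tesk1 and Rfc2 were named after their values were seen. Some genes this rule names are not reported here. RefSeq promoter windows are those of GRCm38.p6.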

Additional observations from a re-analysis of the deposited data

Results flagged for a closer look

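For 21 of the 38 genes the KO effect differed between the 2 cell types by a test of the difference itself, germinal center minus activated (edgeR, adjusted p under 0.05), against 31.2% of all genes tested. The part of the members' higher level in this share was not tested. More positive in germinal center B cells, on the log2 scale, were the KO effects on the inhibitory genes Pirb (1.84), Cd72 (1.18), Cd22 (0.66), Siglecg (0.64), Fcgr2b (0.47) and Dok3 (0.25). The same held for Vav3 (2.50), Bank1 (1.11), Cr2 (0.61), Blk (0.52), Prkcb (0.47), Syk (0.32), Malt1 (0.31) and Lat2 (0.20). More negative were those on Grb2 (-0.57), Akt1 (-0.55), Cd81 (-0.42), Pik3ap1 (-0.29), Rasgrp3 (-0.27), Dapp1 (-0.25) and Plcg2 (-0.21). With 2 libraries per group, no library could be tested as standing apart from its group.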

How the results depend on the processing

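The germinal center counts were stable, with 21 to 22 members higher and 5 to 6 lower under every alternative tried (RLE scaling, DESeq2, no filter on low counts, a replicate block, all 8 libraries in 1 fit, and each library left out). No result changed sign while called. The activated B cell counts were not stable. Of members called, 5 higher and 2 lower became 1 and 0 with DESeq2 (7 and 4 at an unadjusted p under 0.05), 3 and 0 with no filter (11 and 4 unadjusted), and 8 and 3 with a replicate block, and ran over 2 to 5 and 0 to 1 with a library left out. Other signaling genes there, 4 higher and 1 lower, became 10 and 3 with the replicate block and 9 and 3 with all 8 libraries; the 1 lower became 2 with RLE scaling, 0 with DESeq2 (3 at an unadjusted p under 0.05) and 0 with no filter (5 at an unadjusted p under 0.05), and ran over 4 to 6 and 0 to 2 with a library left out. Other inhibitors, 7 higher, became 3 with DESeq2, 4 with no filter and 4 to 6 with a library left out. Over all genes, 684 higher became 250 with DESeq2 and 397 with no filter (493 to 676 with a library left out), and 201 lower became 52, 68, 435 with the replicate block, 408 with all 8 libraries, and 108 to 275. For the difference of KO effects, DESeq2 gave 1430.0 more positive and 1207 more negative genes against 2621 and 2064, 5 other signaling genes more negative against 9 (4 to 9 with a library left out), and 1 other inhibitor more negative against 2 (0 to 3). Other inhibitors lower in KO germinal center B cells were 3 to 5 with a library left out. The causes were not tested. Calls on Dapp1 and Lat2 in that difference were lost with DESeq2 (adjusted p = 0.197 and 0.187), and those on Fgr, Inpp5d and Vav2 in the WT comparison with DESeq2 (0.0564, 0.0533 and 0.178). Deviations of same-numbered libraries correlated at 0.0100 in germinal center B cells, 0.0134 in activated B cells and -0.0082 between the WT groups. These values rest on 2 libraries per group and cannot settle whether replicate numbers pair the samples. Where a library was left out, the lone library of its group is assumed to vary like the others. Depth limits Cd5 and Vav3, which rest on under 51 counts in each germinal center library, and groups of 2 limit every SE.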
